A study of Homo sapiens with 19 samples.

Results

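The 9 genes described here handle cellular iron and heme: TFRC, SLC11A2, SLC40A1, FTH1, FTL, HMOX1, IREB2, ACO1 and CP. They were chosen by symbol, and all 9 were found among the 23441 symbols of the count table and passed the filter on low counts. Their transcripts were measured by RNA-seq in 9 libraries of 786-O cells, and binding near them was taken from 7 lists of ChIP-seq peaks. The established 786-O line derives from a renal carcinoma of the clear cell type and lacks functional VHL, so that all groups here, the control cells included, accumulate endogenous HIF-2α in normal oxygen. The lines were made by lentiviral transduction with pRRL vectors that also encode EGFP after an IRES. Control cells received pRRL alone, HIF-1α re-expressing cells received pRRL-HIF-1α and HIF-2α overexpressing cells received pRRL-HIF-2α. Each line is a pool of transduced cells, and no library used here is labelled hypoxic. RNA was sequenced from 3 libraries of each pool, numbered 1 to 3. RNA was prepared in triplicate, and nothing in the sources says whether from separate cultures, so p-values measure the spread between these libraries, which may be technical. Chromatin was precipitated once per antiserum and pool, with HIF-2α and HIF-1β antisera in each pool and a HIF-1α antiserum in the pool that re-expresses it.

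Cells take up transferrin-bound iron through the transferrin receptor, move it out of endosomes through SLC11A2, store the excess in ferritin shells of heavy (FTH1) and light (FTL) chains, and export it through ferroportin (SLC40A1) with the help of the ferroxidase ceruloplasmin (CP). HMOX1 breaks down heme and releases its iron. The iron regulatory proteins ACO1 and IREB2 bind hairpins called iron-responsive elements when iron is low, which protects TFRC mRNA from decay and blocks translation of ferritin mRNA. TFRC, CP and HMOX1 are long-known hypoxia-inducible genes, and the ferritin genes and HMOX1 are classical targets of NRF2 through antioxidant response elements. HIF binds the core ACGTG or GCGTG, called the HRE core below. NRF2 with small MAF proteins binds sequences such as TGCTGA followed by any base and TCA, called the ARE core below, which overlaps the AP-1 motif TGACTCA (or its reverse complement TGAGTCA).

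Peaks lay close to 5 of the 9 genes, and sequences near 4 of them are shown. The promoter of TFRC is shown because all 7 peak lists held a peak there. The window upstream of CP is shown because it held HIF-2α and HIF-1β peaks but no HIF-1α peak. The windows upstream of FTH1 and FTL are shown because they hold an ARE core match, and the FTL promoter because a HIF-1α peak lay on it. Capitals mark HRE cores, AP-1 motifs and ARE core matches on either strand, and each sequence is written 5′ to 3′ on the strand of its gene in GRCh37. The windows upstream of CP and FTL were shifted from the center of the peaks so as to hold the matches. Promoters come from RefSeq (table on GRCh38.p14) and were placed in GRCh37 by exact match.
TFRC promoter, chr3:195808962-195809211, minus strand: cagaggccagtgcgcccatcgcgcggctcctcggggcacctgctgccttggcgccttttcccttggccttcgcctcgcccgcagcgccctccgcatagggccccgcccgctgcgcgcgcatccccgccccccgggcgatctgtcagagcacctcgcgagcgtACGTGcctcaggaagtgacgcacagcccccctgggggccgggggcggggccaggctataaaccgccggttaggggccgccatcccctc
CP upstream, chr3:148942900-148943199, minus strand: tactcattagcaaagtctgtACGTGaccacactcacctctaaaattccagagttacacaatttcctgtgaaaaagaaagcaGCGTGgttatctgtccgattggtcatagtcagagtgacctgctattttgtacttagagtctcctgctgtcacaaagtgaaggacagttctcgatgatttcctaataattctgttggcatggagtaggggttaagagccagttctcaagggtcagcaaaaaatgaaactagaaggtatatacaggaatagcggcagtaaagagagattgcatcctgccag
FTH1 upstream, chr11:61739348-61739647, minus strand: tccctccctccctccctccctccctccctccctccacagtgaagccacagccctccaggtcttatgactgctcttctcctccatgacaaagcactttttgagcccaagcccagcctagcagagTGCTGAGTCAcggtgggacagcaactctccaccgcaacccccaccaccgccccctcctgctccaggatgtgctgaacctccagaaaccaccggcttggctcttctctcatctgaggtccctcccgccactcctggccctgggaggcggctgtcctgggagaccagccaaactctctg
FTL upstream, chr19:49467144-49467263, plus strand: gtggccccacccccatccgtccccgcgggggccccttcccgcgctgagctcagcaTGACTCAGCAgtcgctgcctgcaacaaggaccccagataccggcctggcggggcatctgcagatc
FTL promoter, chr19:49468316-49468565, plus strand: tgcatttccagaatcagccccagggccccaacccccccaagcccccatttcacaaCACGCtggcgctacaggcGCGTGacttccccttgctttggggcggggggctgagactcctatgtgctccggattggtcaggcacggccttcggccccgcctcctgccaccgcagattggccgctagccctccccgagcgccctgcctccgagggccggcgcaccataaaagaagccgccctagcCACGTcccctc

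The TFRC promoter holds 1 HRE core, at position 163 of the printed sequence. Its center lay at base -1 from the median midpoint of the 7 peaks. No AP-1 motif occurred in that promoter. The CP window holds 2 HRE cores, at positions 21 and 82, and no AP-1 motif. Centered on the peaks, 300 bases at CP held 1 HRE core, and the 512 bases common to its 6 peaks held 0. The centered 300 bases upstream of FTH1 hold 0 HRE cores and 1 ARE core match, at position 124, with its AP-1 motif centered at base -20 from the median midpoint of the 6 peaks there. The nearest HRE core lay at base -737, within the 1911 bases common to those peaks. At FTL the ARE core match lay at base -970 from the median midpoint, on the side of the HIF-1β peak of control cells at base -1080, whereas the promoter holds 3 HRE cores and no AP-1 motif. The 300 bases centered on the FTL peaks held 0 HRE cores, 0 AP-1 motifs and 0 ARE core matches. The match at base -970 was found in a search of 2500 bases, whereas the shares of peaks below are for 300 bases.

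For comparison, 45.7% to 68.2% of all peaks in the 7 lists had an HRE core within 300 bases around their midpoint, 4.96% to 27.5% had an AP-1 motif and 0.517% to 2.96% had an ARE core match. Among 34943 RefSeq promoters, cut to the 250 bases before the start, 43.2% held an HRE core, 4.22% an AP-1 motif and 0.338% an ARE core match. A core of 5 letters is common, and its presence describes the window only. Of the members without a nearby peak, the RefSeq promoter of ACO1, 1 of 2 promoters of IREB2 and 2 of 4 promoters of SLC11A2 held an HRE core, and that of SLC40A1 held none.

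**Figure D1:**
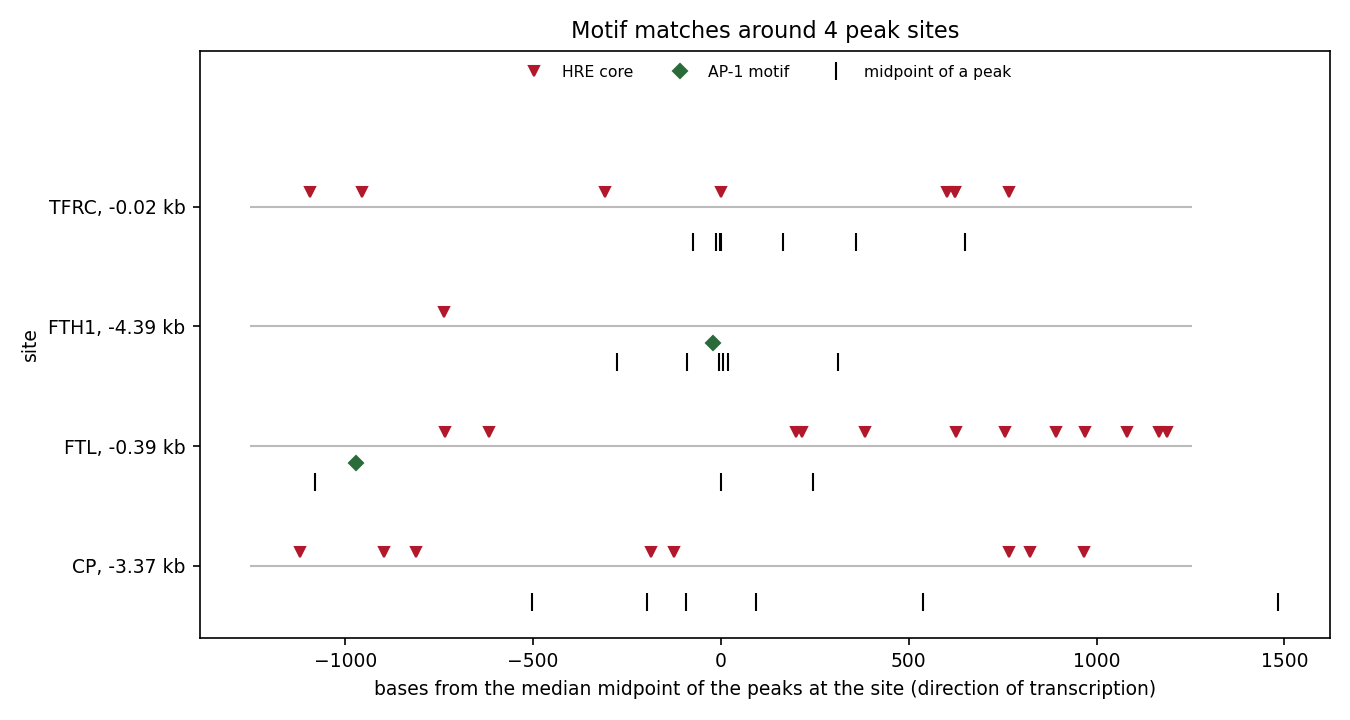
Motif matches around 4 peak sites. The horizontal axis gives bases from the median midpoint of the peaks at each site in the direction of transcription, the rows are sites named by gene and distance from its 5′ end, triangles are HRE cores, diamonds are AP-1 motifs and black ticks are peak midpoints. At TFRC an HRE core stands at base -1, and at FTH1 an AP-1 motif stands at base -20 with the nearest HRE core at base -737.

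The transcripts also carried the elements through which iron itself controls these genes. The transcript marked canonical in GENCODE 44 (lifted to GRCh37) of each gene was searched for a C, 5 bases, the loop CAGTG followed by A, C or T, and 5 bases that pair with the first 5. TFRC held 4 such elements in its 3′ UTR, and FTH1, FTL and SLC40A1 held 1 each in the 5′ UTR, against 183 of 18898 genes searched with at least 1 (0.968%). The transcripts of SLC11A2, HMOX1, IREB2, ACO1 and CP held none in the form searched. Other transcripts of these genes, and stems with unpaired bases, were not searched, so elements of these genes may have been missed. The loops are in capitals in the 4 sequences below on the strand of the transcript (GRCh37), which are printed so that the stems of the ferritin, ferroportin and transferrin receptor elements can be compared.
FTH1, 5′ UTR, chr11:61735048-61735072: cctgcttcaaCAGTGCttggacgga
FTL, 5′ UTR, chr19:49468594-49468618: cttgcttcaaCAGTGTttggacgga
SLC40A1, 5′ UTR, chr2:190445389-190445413: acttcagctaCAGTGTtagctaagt
TFRC, 3′ UTR, first of 4, chr3:195777852-195777876: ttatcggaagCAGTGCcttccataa

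Peaks within 10 kb of an annotated start site were counted for each antiserum and pool. With HIF-1α, 4 of the 9 genes had such a peak, against 24.0% of the 22063 genes placed on the genome. The placed genes include many that did not pass the filter on low counts, which all 9 members passed. Shares among the genes that passed were not counted. With HIF-2α, 3 genes had a peak in control cells (background 3.75%), 4 in HIF-1α re-expressing cells (3.05%) and 3 in HIF-2α overexpressing cells (10.4%). With HIF-1β the numbers were 5 in control cells (18.3%), 3 in HIF-1α re-expressing cells (28.0%) and 5 in HIF-2α overexpressing cells (11.3%). The same 5 genes accounted for all of these counts, and 38.9% of all genes had a peak in at least 1 list. TFRC, FTH1 and CP had peaks of at least 6 lists, as did 2.67% of all genes. With 1 library per antiserum and pool there was no replicate of any peak list and no test, and the lists give windows of 2500 bases without a score, so that binding strength could not be compared.

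TFRC, the transferrin receptor on chromosome 3, was bound at its promoter in every list. The midpoints of its 7 peaks lay within 0.267 kb of an annotated start site, and peaks of all 7 lists were found within 10 kb of 1.25% of genes. FTH1 had peaks in 6 lists at -4.39 kb from its 5′ end, between annotated genes, and the list without a peak there was HIF-1β in HIF-1α re-expressing cells. A separate HIF-1β peak of control cells lay at 4.52 kb, in an intron of FTH1 that overlaps an exon of BEST1. The ferritin light chain gene FTL was bound differently. The HIF-1α list and the HIF-1β lists of control and HIF-2α overexpressing cells had peaks at -0.39 kb, with midpoints spread over 1325 bases. The nearest HIF-1β peak of HIF-1α re-expressing cells was 10.316 kb away. No HIF-2α peak of any pool lay within 10 kb. The nearest HIF-2α peaks were 89.964 kb away in control cells and 90.053 kb away in HIF-2α overexpressing cells.

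HMOX1 had the most scattered binding. Upstream of the gene and within 10 kb of it, peaks of 5 lists came together: HIF-1α, HIF-2α of the HIF-1α re-expressing cells, and HIF-1β of all 3 pools. In HMOX1 itself, 0.77 kb downstream of its 5′ end, peaks were found in 2 lists, both from the pool that re-expresses HIF-1α (HIF-1α and HIF-1β), and the midpoint of the former was 0.09 kb from an annotated start. A further site at -29.41 kb was in 4 lists, among them HIF-2α of control cells. CP showed the opposite pattern to FTL. All 3 HIF-2α lists and all 3 HIF-1β lists had a peak at the site -3.37 kb from the 5′ end of CP, within an intron of a noncoding gene, whereas the nearest HIF-1α peak was 90.168 kb away. The peaks at this site were spread over 1988 bases, and that of HIF-2α in HIF-2α overexpressing cells stood nearest to the gene, at base -1890 from its 5′ end. That list also held a peak in an intron of CP, 0.21 kb from an internal start site.

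No peak of any list lay within 10 kb of SLC11A2, SLC40A1, IREB2 or ACO1. The nearest peaks were at 227.233 kb for SLC11A2, 187.067 kb for SLC40A1, 46.496 kb for IREB2 and 167.801 kb for ACO1. SLC11A2 and SLC40A1 are described as HIF-2α targets in the intestine, which is background and was not measured here.

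**Figure D2:**
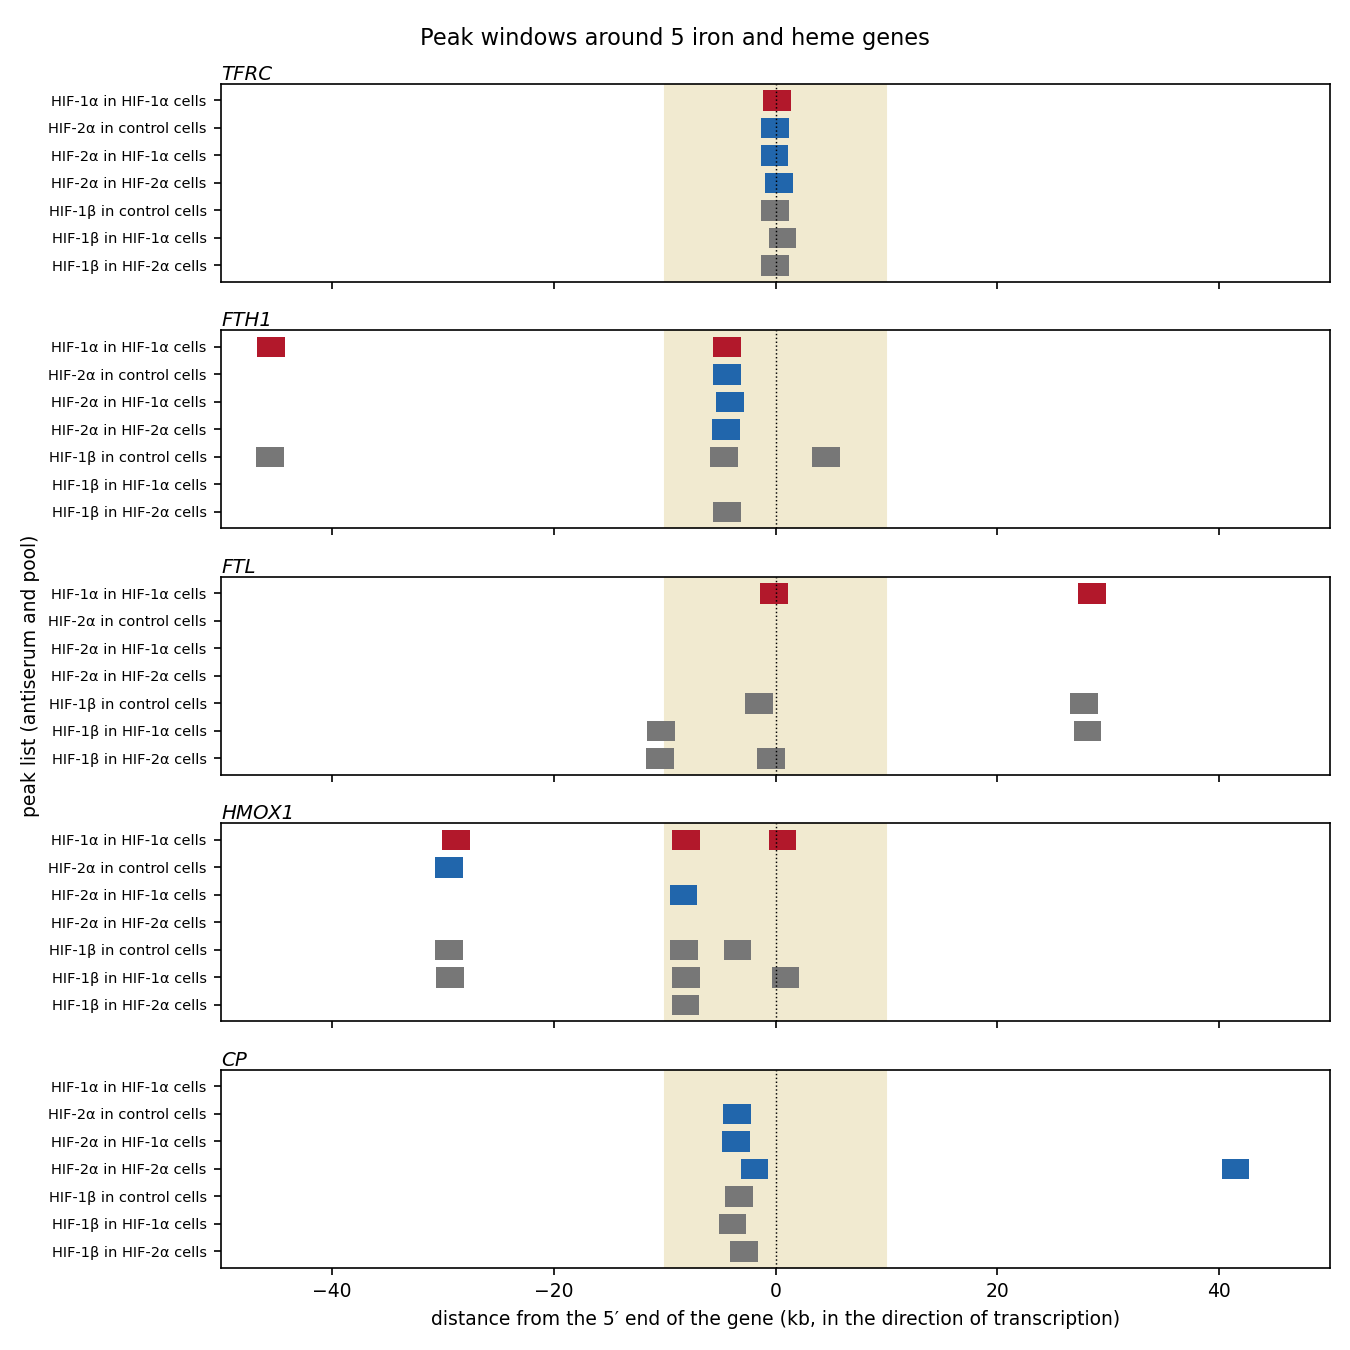
Peak windows around TFRC, FTH1, FTL, HMOX1 and CP. The horizontal axis is the distance from the 5′ end of the gene in kb in the direction of transcription, each row is a peak list named by antiserum and pool (HIF-1α in red, HIF-2α in blue, HIF-1β in gray), each bar is a window of 2500 bases and the shaded band is 10 kb to either side. TFRC has a bar in all 7 rows, FTL has none in the HIF-2α rows within the band, and CP has none in the HIF-1α row.

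RNA-seq totals ran from 27852754 to 54287621 counts per library, so counting error is small for every member except SLC40A1. The transgenes were higher in the pools labelled with them, with wide variation. HIF1A stood at 171.5, 1682 and 472.6 CPM (counts scaled to a common library size with TMM factors) in HIF-1α replicates 1 to 3, while control replicates had 30.4, 36.7 and 151.6. The endogenous HIF1A transcripts of 786-O cells are truncated, and gene counts do not separate them from the transgene. EPAS1, which encodes HIF-2α, stood at 945.9, 3244 and 879.8 CPM in HIF-2α replicates, while control replicates had 455.9, 224.2 and 162.1. EPAS1 was also above control in all 3 HIF-1α pairs, by 1.26, 2.8 and 2.45 times (log2 0.95 ± 0.43 with the block, edgeR adjusted p = 0.154). All 8 markers of the renal carcinoma line were expressed (PAX8 at 175.5 CPM or more in every library), but some moved with the pools: with the block, KRT18 was lower with HIF-1α than in control cells by -0.86 (edgeR, adjusted p = 0.0405) and CDH6 higher with HIF-1α than with HIF-2α by 2.04 (adjusted p = 0.0172). The part of these differences in the results below was not tested. As for other cell types, the erythroid, liver and endothelial markers and 2 of 3 leukocyte markers did not pass the filter. The third, CD68, ran from 28.6 to 160 CPM. Libraries with the same replicate number deviated together in all pools, so results with the replicate number added as a block stand beside those without it wherever a call changes.

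The ferritin chains were by far the most abundant members. Per kilobase of exon, control cells had 3020 ± 1320 CPM of FTL (SD, n = 3) and 1530 ± 565 of FTH1, followed by HMOX1 at 30.8 ± 16.6, CP at 19.2 ± 4.71, TFRC at 14.1 ± 4.64, ACO1 at 13.2 ± 3.35, IREB2 at 6.33 ± 1.25 and SLC11A2 at 5.29 ± 1.43. SLC40A1 was close to nothing at 0.0439 ± 0.0428. Ranges of FTL and FTH1 overlapped, as did those of the neighbors HMOX1 and CP, CP and TFRC, TFRC and ACO1, and IREB2 and SLC11A2. With the length of the longest transcript in place of the exon union, TFRC moved from 14.1 to 35.6 CPM per kilobase, SLC11A2 from 5.29 to 12.7, IREB2 from 6.33 to 10.8, FTH1 from 1530 to 2550 and CP from 19.2 to 30.5. TFRC then stood above CP and SLC11A2 above IREB2, so that the order among the less abundant members depends on the length used.

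FTH1 and FTL were highest in the HIF-1α re-expressing cells and lowest in the HIF-2α overexpressing cells under each replicate number, and the difference between these pools passed the test with the replicate block only. FTH1 was at 6217, 3717 and 3762 CPM in HIF-1α replicates 1 to 3, at 3946, 1790 and 3451 in those of control cells and at 3273, 1352 and 2096 with HIF-2α. The HIF-1α libraries were all above the HIF-2α libraries, and 10.4% of the 14225 genes tested were separated in this way. HIF-1α re-expressing cells had more FTH1 than HIF-2α overexpressing cells, by 1.03 ± 0.41 on the log2 scale (SE; adjusted p = 0.312 by edgeR's quasi-likelihood test) and by 1.09 ± 0.23 with the replicate block (adjusted p = 0.0265). FTL was at 6147, 2460 and 3784 CPM with HIF-1α, at 3702, 1415 and 2758 in the control cells and at 3159, 1078 and 1927 with HIF-2α. Here the libraries of the pools overlapped, because replicate 1 was the highest and replicate 2 the lowest in each pool. Within replicate numbers the HIF-1α to HIF-2α ratio of FTL was 1.95, 2.28 and 1.96, and the log2 difference was 1.01 ± 0.49 without the block (adjusted p = 0.405) and 1.04 ± 0.19 with it (edgeR, adjusted p = 0.0158).

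In these bulk libraries, a change in the share of expressing cells and a change in RNA per cell cannot be told apart. CDH6, the line marker called in this comparison, was 2.16, 10.4 and 3.04 times as high with HIF-1α as with HIF-2α. Both ferritin calls depended on the block and on which libraries were present. With the block, 4.54% of all genes were called higher in HIF-1α re-expressing than in HIF-2α overexpressing cells, and 2 of the 9 members were. Leaving out HIF-1α replicate 1 or 2 or HIF-2α replicate 1, 2 or 3 ended the call of FTH1 (adjusted p of 0.0793, 0.113, 0.0668, 0.0905 and 0.142), and leaving out HIF-1α replicate 1 or 2 or HIF-2α replicate 2 or 3 ended that of FTL (0.0617, 0.0744, 0.059 and 0.0995), while the log2 difference stayed between 0.85 and 1.26 for FTH1 and between 0.95 and 1.11 for FTL. Against control, FTH1 differed by 0.62 ± 0.23 in HIF-1α re-expressing cells and by -0.47 ± 0.22 in HIF-2α overexpressing cells, and FTL by 0.66 ± 0.19 and -0.38 ± 0.19 with the block, none past the threshold (edgeR, adjusted p of 0.1, 0.367, 0.057 and 0.374). These pairs of comparisons share the 3 control libraries. FTH1 overlaps BEST1 on the opposite strand and the strand setting of the counting is not given in the sources used here, and 25 FTH1 and 16 FTL pseudogenes are annotated, so that reads of the ferritin genes may have been lost as non-unique.

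**Figure D3:**
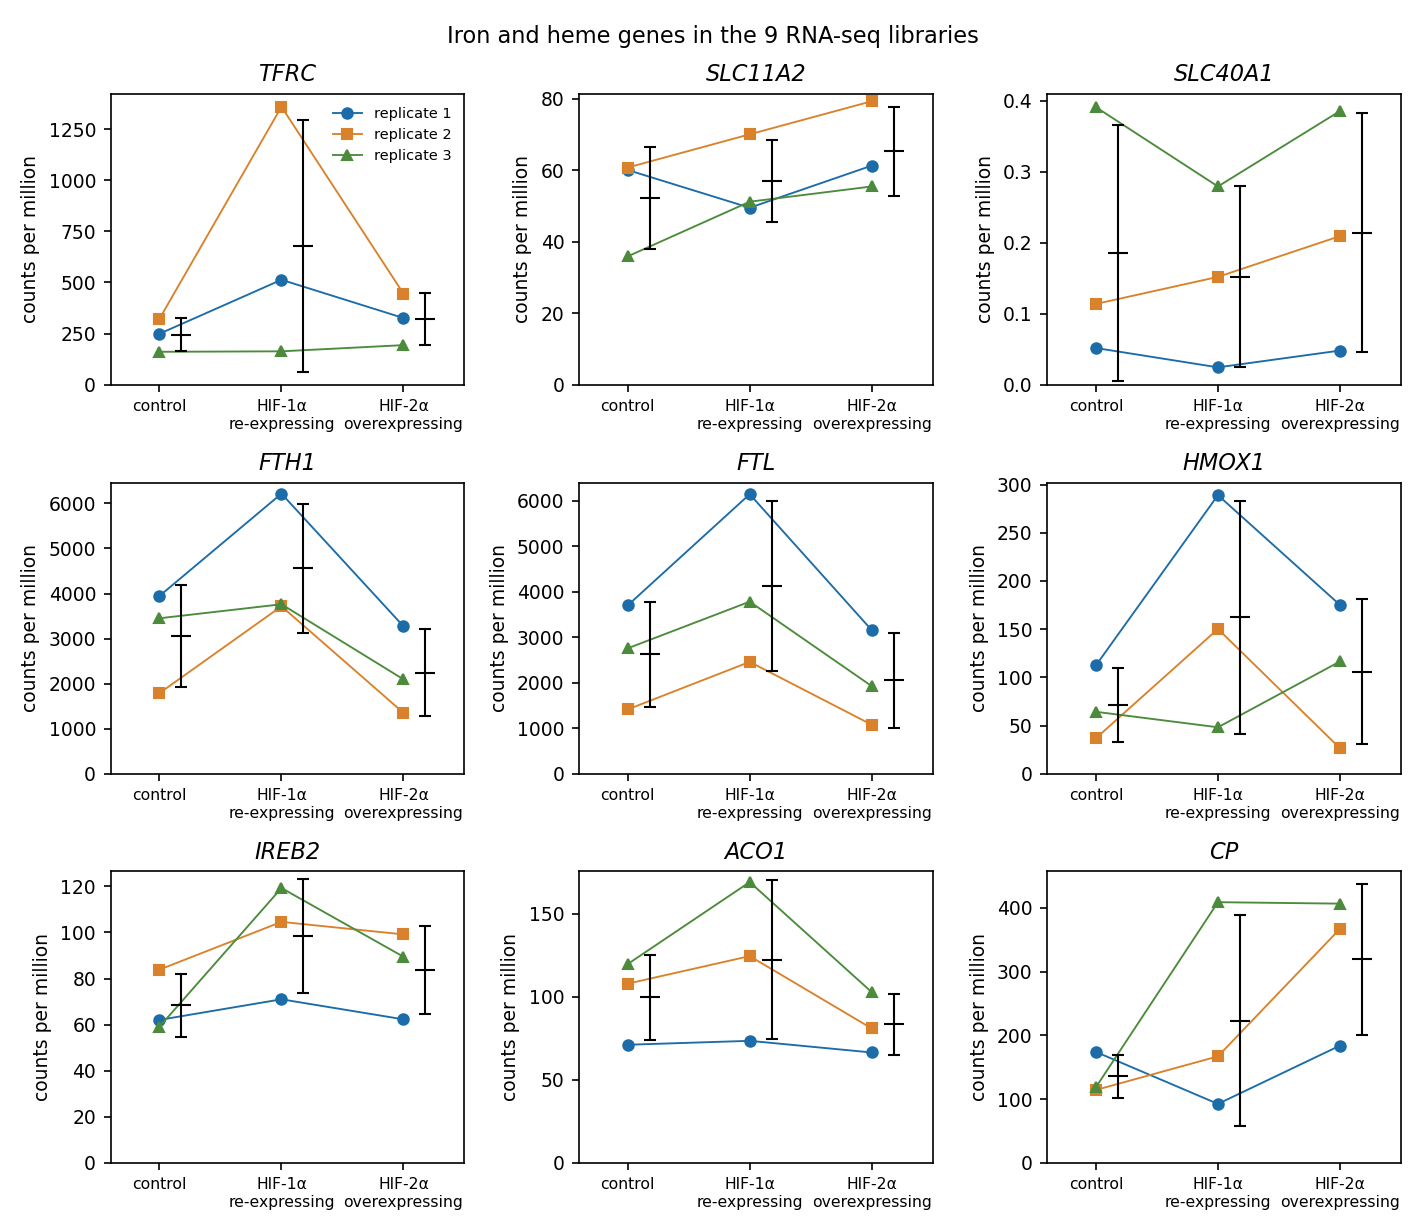
Levels of the 9 genes in the 9 RNA-seq libraries. Each panel is a gene, the vertical axis is CPM on a linear scale from 0, points joined by a line share a replicate number, and black bars are the mean ± SD of the 3 libraries of a pool. For FTH1 and FTL each line peaks in the HIF-1α re-expressing cells and is lowest in the HIF-2α overexpressing cells, whereas for HMOX1 the lines cross.

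TFRC, the uptake receptor, was higher on average with HIF-1α, but the size rested on a single library. Its CPM were 513.2, 1359 and 163.5 with HIF-1α, 326.3, 445.7 and 193.7 with HIF-2α and 249.3, 322.3 and 161.2 in control cells. Replicate 3 of the HIF-1α re-expressing cells did not stand out from its control (ratio 1.01), while replicates 1 and 2 were 2.06 and 4.22 times their controls. The log2 difference from control was 1.47 ± 0.64 (edgeR, adjusted p = 0.245), and 1.11 ± 0.35 with the block (adjusted p = 0.0737). Over the fits with the block that each left out 1 library it ran from 0.56, without HIF-1α replicate 2, to 1.56, without HIF-1α replicate 3. Between the HIF pools it was 0.75 ± 0.35 with the block (adjusted p = 0.222 by edgeR), and without HIF-1α replicate 3 it was 1.19 and passed (adjusted p = 0.0476). In the HIF-2α overexpressing cells TFRC was 1.31, 1.38 and 1.2 times control within replicate numbers (log2 difference 0.36 ± 0.34 with the block, edgeR adjusted p = 0.637).

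SLC11A2, the endosomal iron transporter, varied little. It was at 49.54, 70.09 and 51.23 CPM with HIF-1α, 61.32, 79.34 and 55.49 with HIF-2α and 60.1, 60.79 and 35.93 in control cells. All 3 pairs were higher with HIF-2α than in control cells, by 1.02, 1.31 and 1.54 times, and the difference was not past the threshold (log2 0.34 ± 0.18 with the block, edgeR adjusted p = 0.42). SLC40A1, the only known exporter of iron, was near the limit of detection, with 1, 6 and 15 counts with HIF-1α, 2, 6 and 15 with HIF-2α and 2, 4 and 15 in control cells. Its counts followed the replicate number, which took 93.2% of the variance of its log2 CPM, and not the pool, which took 3.36%. No difference between pools was detectable at these counts.

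CP was at 183.9, 367.2 and 406.8 CPM with HIF-2α, while control replicates had 174, 114.3 and 118.7, and no library of the first group was below any of the second, which held for 6.0% of the genes tested. The log2 difference was 1.23 ± 0.5 without the block and 1.08 ± 0.44 with it (edgeR, unadjusted p of 0.0337 and 0.0345, adjusted p of 0.837 and 0.315). In the HIF-1α re-expressing cells CP was at 92.41, 167.1 and 409.1 CPM, which spans the range of both other pools. Its log2 difference from control with the block was 0.44 ± 0.44 (edgeR, adjusted p = 0.513), and 1.12 without control replicate 1, where it passed (adjusted p = 0.0445). CP overlaps HPS3 on the opposite strand.

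HMOX1, the inducible heme oxygenase, varied widely between libraries of each pool. It was at 289, 150.2 and 48.21 CPM with HIF-1α, 175.1, 26.48 and 116.5 with HIF-2α and 112.5, 36.9 and 64.28 in control cells. Relative to control the HIF-1α replicates were 2.57, 4.07 and 0.75 times as high, so the third went the other way. The log2 difference of 1.22 ± 0.54 with the block was not past the threshold (edgeR, adjusted p = 0.152), and 36.6% of the variance of log2 CPM was left after pool and replicate number, against 38.2% for CP and 0.986% for FTL.

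The iron regulatory proteins moved by small amounts. ACO1 was at 73.46, 124.5 and 169.1 CPM with HIF-1α, at 71.09, 107.9 and 119.7 in control cells and at 66.44, 80.91 and 102.8 with HIF-2α, the same order of pools as for the ferritins in each replicate. Its HIF-1α to HIF-2α difference was 0.50 ± 0.17 on the log2 scale with the block (edgeR, adjusted p = 0.125). Taken singly, 29.0% of genes were above control in all 3 HIF-1α pairs and 19.4% below it in all 3 HIF-2α pairs. The share of genes with both, the order of ACO1 and the ferritins, was not counted. IREB2 was at 70.98, 104.6 and 119.3 CPM with HIF-1α, 62.28, 99.16 and 89.46 with HIF-2α and 62.04, 83.87 and 59.07 in control cells. The HIF-1α libraries were 1.14, 1.25 and 2.02 times their controls (log2 0.50 ± 0.19 with the block, edgeR adjusted p = 0.108).

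In all, 0 of the 9 genes passed an adjusted p of 0.05 in edgeR without the block in any comparison. Of all genes 0, 0 and 0.0492% did for HIF-1α against control, HIF-2α against control and HIF-1α against HIF-2α. In DESeq2, run on all 23441 symbols with its own filter, 0 members passed. It called 751, 65 and 650 genes, a number equal to 5.28%, 0.457% and 4.57% of the 14225 genes tested in edgeR. At an unadjusted p under 0.05 in edgeR without the block there was 1 member in each comparison (TFRC, CP and FTH1), against 19.4%, 5.89% and 13.6% of all genes. With the block 0, 0 and 2 members passed, against 7.96%, 0.267% and 5.93% of genes. The median log2 difference of the members from control with the block was 0.50 with HIF-1α and 0.27 with HIF-2α, beside 0.04 and -0.01 for all genes. Within replicate numbers, 5 members were above control in all 3 HIF-1α pairs (TFRC, FTH1, FTL, IREB2 and ACO1), against 29.0% of genes. In the HIF-2α pairs 4 members were above control in all 3 (TFRC, SLC11A2, IREB2 and CP; 19.7% of genes) and 3 below (FTH1, FTL and ACO1; 19.4%). Between the HIF pools 4 members were higher with HIF-1α in all 3 pairs (FTH1, FTL, IREB2 and ACO1; 25.3%) and 2 lower (SLC11A2 and the barely detected SLC40A1; 24.1%).

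**Figure D4:**
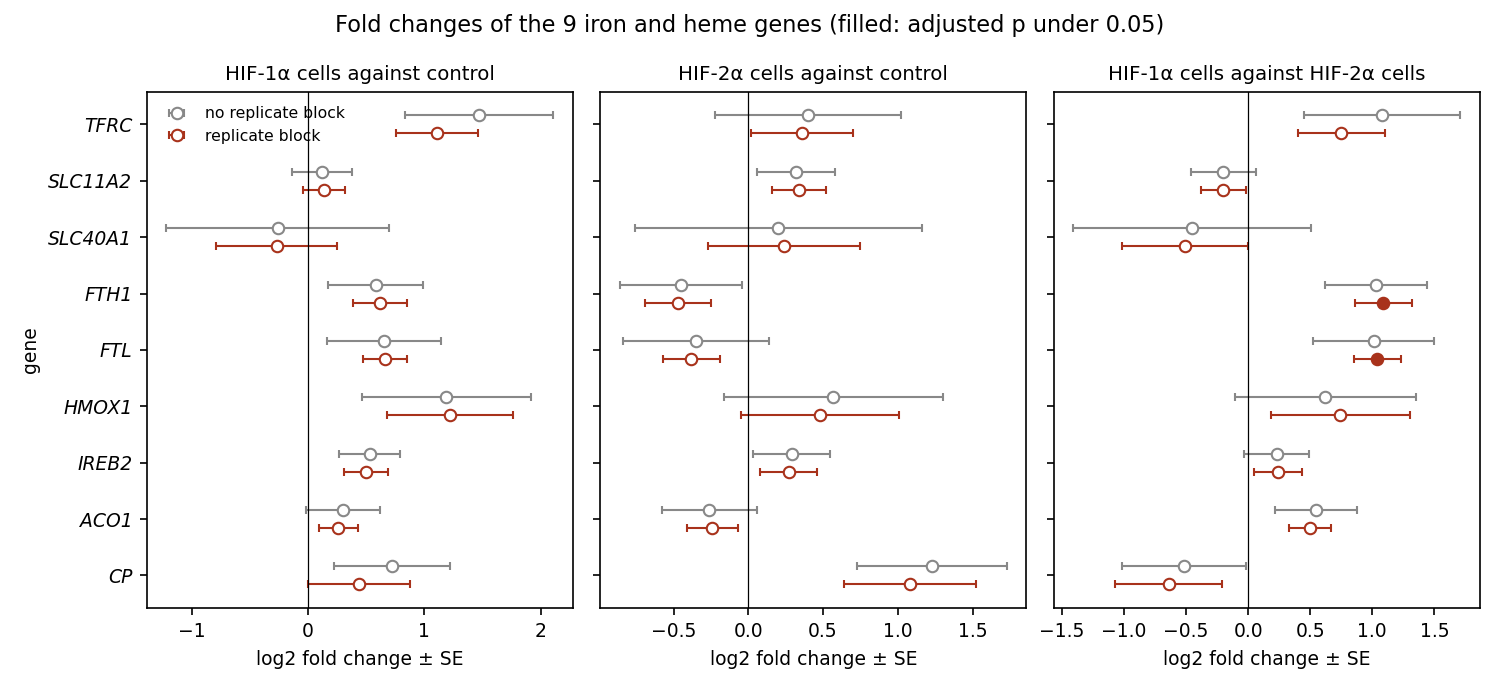
Log2 fold changes of the 9 genes in 3 comparisons. The horizontal axis is the log2 fold change with its standard error, gray points come from the edgeR fit without and red points from that with the replicate block, and filled points have an adjusted p under 0.05. FTH1 and FTL, at 1.09 and 1.04 in the third panel, are the filled points.

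Levels of the members across the 9 libraries grouped them loosely. FTH1 and FTL had a Pearson r of 0.97, and HMOX1 had 0.75 with FTH1 and 0.73 with FTL, while TFRC had 0.10 with FTH1 and -0.07 with FTL. These are descriptions over n = 9 libraries that share pools and replicate numbers. Among 10669 genes with a mean of at least 5 CPM, the most alike were INHBA (r = 0.984) and FTL for FTH1, and FTH1 and SMYD3 (0.961) for FTL. For TFRC they were ZNF280B (0.945) and TMEM110 (0.937), for CP OPN3 (0.939) and NOTCH2NL (0.903), and for HMOX1 OGFRL1 (0.912) and EML1 (0.908). ACO1 was most like BCL3 (0.977) and TNFAIP2 (0.973), SLC11A2 like EEA1 (0.969) and PAFAH1B1 (0.947), and IREB2 like ZNF721 and BTN2A2 (both 0.97).

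Other genes of iron and heme handling were taken from 7 lists with 73 genes, of which 62 were tested. Without the block 0 passed in any comparison (edgeR). With it, 3 were higher and 3 lower in HIF-1α re-expressing than in control cells (5.41% and 2.55% of all genes), 0 changed in HIF-2α overexpressing cells, and 1 was higher and 2 lower with HIF-1α than with HIF-2α (4.54% and 1.38%). The medians were -0.21, -0.13 and -0.12 beside 0.04, -0.01 and 0.01 for all genes. In the uptake list, TFR2, a second transferrin receptor that senses iron in liver and erythroid cells, was at 1.373, 9.745 and 2.606 CPM with HIF-1α against 0.1204 to 0.1798 with HIF-2α and 0.1422 to 0.964 in control cells, low levels with no overlap that rest on 5, 5 and 7 counts with HIF-2α and 8, 5 and 37 in control cells (12.9% and 10.4% of genes had higher libraries without overlap in these comparisons). It differed by 4.59 between the HIF pools (log2, edgeR with block, adjusted p = 0.0158), a call that ended without HIF-2α replicate 2 or 3 (0.0584 and 0.0916) and held in 7 of 9 fits that left out 1 library, with differences of 3.33 to 5.32. From control it differed by 3.18 (0.0431), a call that ended on leaving out any 1 of the 9 libraries (0.0521 to 0.197), with differences from 2.13, without HIF-1α replicate 2, to 4.36, without control replicate 3. At TFR2 the nearest HIF-1α midpoint was 0.015 kb from an annotated start, and no HIF-2α peak lay within 10 kb. A HIF-1β peak of control cells lay 0.017 kb from a start. HIF-1α peaks lay within 10 kb of 24.0% of all genes placed on the genome, tested or not. Among the other called list genes, described below, they lay near LRP1 (0.37 kb), CISD1 (1.358 kb) and ABCB10 (0.198 kb). No HIF-1α peak lay within 10 kb of HMOX2, UROD, STEAP2 or FURIN. HIF-1β peaks of HIF-1α re-expressing cells lay near HMOX2 (0.681 kb), UROD (0.45 kb) and FURIN (0.077 kb), as near 28.0% of genes. HMOX2 also had a HIF-2α peak of HIF-2α overexpressing cells at 0.839 kb (10.4% of genes). STEAP2 had no peak of any list within 10 kb.

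LRP1, a receptor that takes up heme bound to hemopexin among many ligands, was at 224.4, 562.8 and 481.1 CPM with HIF-1α against 142.4, 57.15 and 70.45 in control cells, a log2 difference of 2.23 with the block (edgeR, adjusted p = 0.0358) that ran from 1.76, without control replicate 2, to 2.87, without control replicate 1. With HIF-2α it was at 173.4, 214 and 197.1 CPM, also above all control libraries (6.0% of genes). The difference from control was 1.11 (edgeR with block, adjusted p = 0.291), and that between the HIF pools was 1.12 (adjusted p = 0.142). STEAP2, a metalloreductase, rose by 1.17 in the same fit (adjusted p = 0.0493). The constitutive heme oxygenase HMOX2 fell by 0.92 (adjusted p = 0.0357), at 36.52, 32.4 and 31.11 CPM against 60.38, 66.97 and 61.41, while its inducible relative HMOX1 did not pass. HMOX2 was at 52.7, 36.64 and 47.79 CPM with HIF-2α, also below control in all 3 pairs (19.4% of genes). The difference from control was -0.47 (edgeR with block, adjusted p = 0.292), and that between the HIF pools was -0.45 (adjusted p = 0.167). UROD of heme synthesis and CISD1, an iron-sulfur protein of the outer mitochondrial membrane, fell by 0.63 and 0.65 (0.0473 and 0.0481). Of the other mitochondrial and iron-sulfur genes none passed (edgeR with block). Of the 18 on that list, 13 were below control in all 3 HIF-1α pairs (25% of all genes; median -0.55) and 11 in all 3 HIF-2α pairs (19.4%; median -0.28), 2 comparisons that share the control libraries. Other lists moved in the HIF-1α pairs too. Below control in all 3 were 5 of 6 tested genes that regulate the iron regulatory proteins (median -0.50) and 3 of 4 storage genes (-0.41). Of 11 uptake genes, 7 were above it in all 3 (29.0% of all genes; median 0.83). Of 9 heme synthesis genes 3 were below and 1 above, and of 13 heme breakdown genes 3 below and 4 above. Between the HIF pools, FURIN, a protease that processes hemojuvelin, and ABCB10, a mitochondrial transporter, differed by -0.84 and -0.75 (HIF-1α minus HIF-2α, 0.0371 and 0.0436). Mean CPM of FURIN were 62.6 with HIF-1α, 75 in control cells and 109 with HIF-2α. Those of ABCB10 were 17.1, 19.7 and 28.3. For both genes the HIF-2α libraries were all above the control libraries (6.0% of genes), while the HIF-1α and control libraries overlapped. Neither gene passed against control (edgeR with block).

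Apart from TFR2 between the HIF pools, these list calls had adjusted p-values of 0.0357 to 0.0493. In fits with the block that left out 1 library, the calls against control held in 4 of 9 fits for LRP1 (adjusted p of 0.0147 to 0.197), 3 for HMOX2 (0.0228 to 0.197), 2 for STEAP2 (0.0308 to 0.229), 1 for UROD (0.0335 to 0.209) and 0 for CISD1 (0.0527 to 0.204), and those between the HIF pools in 2 of 9 for FURIN (0.0323 to 0.176) and 1 for ABCB10 (0.0476 to 0.192). Leaving out control replicate 2 or 3, HIF-1α replicate 2 or 3 or HIF-2α replicate 1 ended each of the 6 calls against control. A list of 12 NRF2 genes outside iron handling held targets such as NQO1 and GCLM, and also NFE2L2, which encodes NRF2, and its regulator KEAP1. Of these, 0 passed in any comparison with or without the block. Their median log2 values with the block were -0.26 with HIF-1α and -0.25 with HIF-2α against control and 0.10 between the HIF pools. For HIF-1α against control 4 were above 0 and 8 below, and between the HIF pools 7 were above 0 and 5 below. NQO1 was at 339.1, 139 and 114.6 CPM with HIF-1α, 337.8, 94.87 and 128.3 with HIF-2α and 344.7, 213.7 and 242.2 in control cells. GCLM was at 160.9, 104.1 and 55.16 CPM with HIF-1α, 121.8, 66.57 and 84.14 with HIF-2α and 95.1, 99.74 and 70.01 in control cells.

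**Figure D5:**
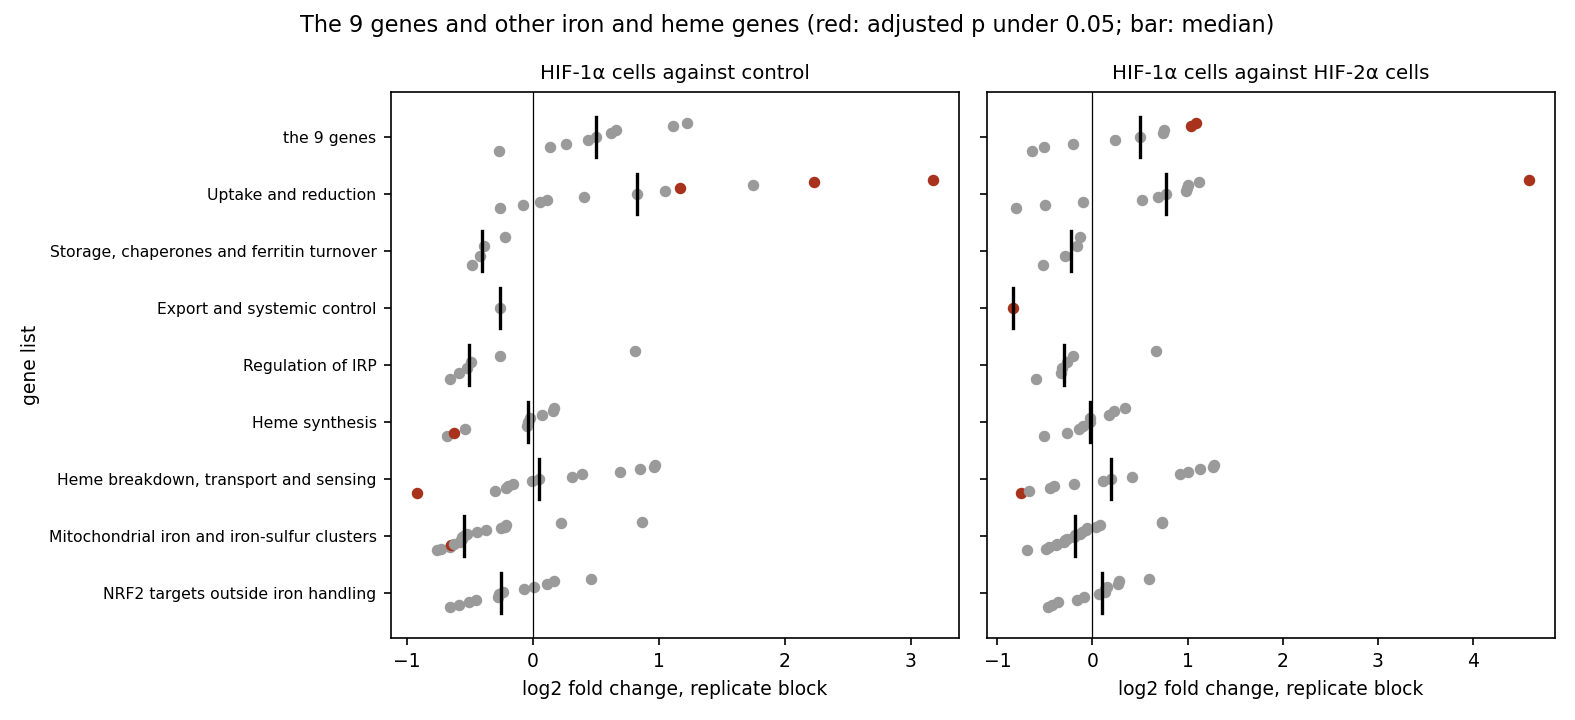
Log2 fold changes of the 9 genes and of the other iron, heme and NRF2 lists with the replicate block. The horizontal axis is the log2 fold change, each row is a list and each point a gene, red points have an adjusted p under 0.05 and the black bar is the median of the list. TFR2 is the point at 3.18 and 4.59, and the mitochondrial and iron-sulfur list has its median at -0.55 on the left.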

How the data were processed

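RNA-seq of polyadenylated RNA (3 libraries in each of 3 pools) and ChIP-seq (1 library per antiserum and pool, 7 peak lists) of 786-O cells were analyzed. The deposited count table was made by the authors with TopHat2 2.0.8b and Bowtie 1.0.0 on GRCh37, keeping uniquely mapped fragments, and HTSeq 0.5.4p3 on UCSC genes; it holds raw read counts per gene. The deposited peak lists (BWA, then peaks called by both T-PIC and MACS) give windows of 2500 bases with no score. The 3 input libraries have no peak list and were not used.

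Counts were fitted with edgeR 4.0.16 (R 4.3.3; TMM factors, filterByExpr, quasi-likelihood test, all 9 libraries, pool as the only term) over 14225 genes with Benjamini-Hochberg adjustment at 0.05. Adjusted p-values in the report are over all genes tested. The same model with a term for the replicate number (the block) is given beside it. Same-numbered libraries of different pools deviated together from their pool means (r of 0.329 to 0.645 in 9 pairs, against -0.483 to 0.0325 in 18 pairs of different numbers), so the numbers were taken to pair the libraries; the labels do not say what a number shares. The biological coefficient of variation was 37.6% without and 24.6% with the block. Counts of 14225 genes were simulated for HIF-1α against control, with 200 genes changed by a log2 of 2. Without simulated replicate effects, the fit without the block recovered 73.5% of these. In separate counts with replicate effects, the fit with the block recovered 97.5%. Each simulation used the spread of its own fit, so the 2 shares do not compare the fits. Smaller changes were not simulated.

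Depth was 27852754 to 54287621 counts per library, and intervals from counting alone are narrower than the spread between libraries for the members except SLC40A1; TFR2, with 5 to 37 counts outside the HIF-1α pool, is limited by counting too. CPM are on TMM-scaled totals. Levels per kilobase use the union of exons of GENCODE 44 lifted to GRCh37, in which 22063 of 23441 symbols were placed (1409 by an older symbol). A peak was counted as near a gene if its midpoint was within 10 kb of an annotated transcript start. All 9 genes and the transgenes are named. Of the other iron and heme lists, genes past the threshold with or without the block are named, at most 8 per comparison. NQO1, GCLM, KRT18 and CDH6 were named after their values were seen. For likeness the 2 genes with the highest Pearson r of log2 CPM are given. The genes and lists were chosen with earlier results of these data known. Alternatives were DESeq2 1.42.0, RLE factors, no filter on low counts, only the libraries compared, leaving out each library, other distances and start sites for peaks, and the longest transcript as length. Sequences were read with pysam 0.24.0 from GRCh37. The sequence of 1 window near HMOX1 is not reported here.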

Additional observations from a re-analysis of the deposited data

Results flagged for a closer look

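Some genes differed between the HIF-1α re-expressing and HIF-2α overexpressing cells by the direct test between the 2 pools, fitted with the replicate block in edgeR. Effects of the transgenes and other differences between these pools cannot be told apart. The difference (HIF-1α minus HIF-2α) was 1.09 on the log2 scale for FTH1 and 1.04 for FTL. It was 4.59 for TFR2, -0.84 for FURIN and -0.75 for ABCB10. None of these passed without the block. In fits with the block that left out 1 library, the calls held in 4 of 9 for FTH1, 5 for FTL, 7 for TFR2, 2 for FURIN and 1 for ABCB10. For ACO1 every library of the HIF-1α re-expressing cells was above, and every library of the HIF-2α overexpressing cells below, the control of the same replicate number, with a difference of 0.50 that did not pass the test (edgeR with block, adjusted p = 0.125). The share of all genes with this order of pools was not counted.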

How the results depend on the processing

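The number of genes called moved with the replicate block and with the tool. With the block 1132 genes were called for HIF-1α against control, 38 for HIF-2α against control and 843 between the HIF pools, against 0, 0 and 7 without it. DESeq2 called 751, 65 and 650. Without a filter on low counts 1 gene was called for HIF-2α against control and 82 between the HIF pools, and with only the libraries compared 2 and 0. The cause was not tested. Without the block, leaving out 1 library gave 0 to 0, 0 to 2 and 0 to 29 calls. With the block and without HIF-1α replicates 1, 2 and 3, HIF-2α replicates 1, 2 and 3 and control replicates 1, 2 and 3 in turn, the calls were 211, 0, 34, 0, 827, 503, 2408, 0 and 0 for HIF-1α against control, 19, 26, 94, 10, 24, 6, 78, 2 and 7 for HIF-2α against control, and 592, 324, 481, 402, 526, 167, 890, 628 and 729 between the HIF pools.

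Of the members, FTH1 and FTL passed between the HIF pools with the block only, and the block changed no other call of a member. DESeq2, RLE factors, no filter and only the libraries compared gave 0 member calls in any comparison. The direction of a member changed only on leaving out a library. For HIF-1α against control without the block, SLC11A2 then ran from -0.09 to 0.24, SLC40A1 from -1.06 to 0.89, ACO1 from -0.01 to 0.55 and CP from -0.07 to 1.08. For HIF-2α against control SLC40A1 ran from -0.57 to 1.34. Between the HIF pools SLC40A1 ran from -1.25 to 0.29 and HMOX1 from -0.09 to 1.17. With the block, the reversed values were -0.02 for SLC11A2 (without control replicate 3), and -0.10 and -0.07 for CP (without HIF-1α replicate 3 and without control replicate 3), both for HIF-1α against control. For HIF-2α against control they were -0.07 for SLC40A1 (without control replicate 2) and -0.21 for HMOX1 (without HIF-2α replicate 3), and between the HIF pools -0.01 for HMOX1 (without HIF-1α replicate 2). The number of members with a peak in a list was 3 to 5 under each of the other distances, start sites and peak positions, as at 10 kb. With 1 to 15 counts, SLC40A1 is limited by depth.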
